A study of Mus musculus with 3 samples.

Results

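Gbx2, Tcf15, Otx2, Foxd3 and Fgf5 are 5 genes of the formative state and the early epiblast, taken by symbol out of the 32285 genes listed in the count files. The 4 genes Gbx2, Tcf15, Otx2 and Foxd3 encode transcription factors, whereas Fgf5 encodes a secreted fibroblast growth factor and not a transcription factor. All 5 symbols were found, each with 1 identifier. Levels were summed over the cells of each library and given as CPM, that is, scaled to counts per 1000000 of the unique molecular identifiers (UMIs) in that library's cells, where each UMI tags 1 captured RNA molecule.

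The cells were E14 mouse embryonic stem cells (mESCs) of 129/Ola background, grown on gelatin with 15% serum and leukemia inhibitory factor (LIF). Starting 24 h after seeding, the control culture received 0.007% ethanol alone for 6 h, and the other cultures received 250 µg/mL cycloheximide in the same ethanol concentration for 3 h or for 6 h. Cycloheximide stops ribosomes during elongation. Each group was a single library of a single cell line, frozen and thawed before droplet capture, and the 3 h group had no ethanol control of its own duration. With 1 library per group there was no replicate check and no test between groups, so every difference below is between 3 libraries, and every interval is a 95% interval for counting error only.

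As background, embryonic stem cells in serum and LIF are mostly in a naive state held by LIF signalling through STAT3 together with a network of transcription factors. On the way to the primed epiblast of the implanted embryo, cells pass through a formative state, in which fibroblast growth factor signalling through ERK is active and a further set of transcription factors is put in place. Otx2 is a homeobox factor that directs Pou5f1 to new enhancers during that passage, Fgf5 is the classical transcript of the post-implantation epiblast, and Foxd3 is a forkhead factor needed for epiblast maintenance. Tcf15 is a basic helix-loop-helix (bHLH) factor linked to priming in embryonic stem cells and is antagonised by Id proteins. Gbx2 is a homeobox factor and a target of LIF and STAT3, and it can sustain self-renewal.

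In these cells the 5 genes did not move as a group. Gbx2, Tcf15 and Foxd3 were lower after 3 h of cycloheximide and lower again after 6 h. Otx2 was higher at both times, with its highest level after 3 h. Fgf5 was almost undetected in each of the 3 libraries. On the log2 CPM ratio scale, the median over the 4 genes with more than 5 UMIs in every library was -1.38 after 3 h against control (interval -1.44 to -1.31) and -2.51 after 6 h against control (-2.58 to -2.43), while the median over all 7608 genes averaging 10 CPM or more was 0.11 and 0.17.

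RefSeq lists start regions on GRCm38.p6 for 4 of the 5 genes, each from 250 bases before to 50 bases after a start site, and those of Gbx2, Foxd3 and 1 of the 4 listed start sites of Otx2 are shown because Gbx2 and Foxd3 were lower and Otx2 was higher. The Otx2 window printed is the one with the most matches, chosen after the search. Capitals mark matches on either strand to CACGTG (an E-box), TGACGTCA (a cyclic AMP response element), TAATTA (core letters bound by many homeobox factors) and TATAAA.
Gbx2 start region, chr1:89931127-89931426, minus strand: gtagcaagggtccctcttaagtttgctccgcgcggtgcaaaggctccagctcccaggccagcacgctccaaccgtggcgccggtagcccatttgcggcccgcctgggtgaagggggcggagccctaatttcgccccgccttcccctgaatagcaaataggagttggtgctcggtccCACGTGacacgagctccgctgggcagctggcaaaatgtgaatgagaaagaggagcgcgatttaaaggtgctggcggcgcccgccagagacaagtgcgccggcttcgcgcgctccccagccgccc
Foxd3 start region, chr4:99656049-99656348, plus strand: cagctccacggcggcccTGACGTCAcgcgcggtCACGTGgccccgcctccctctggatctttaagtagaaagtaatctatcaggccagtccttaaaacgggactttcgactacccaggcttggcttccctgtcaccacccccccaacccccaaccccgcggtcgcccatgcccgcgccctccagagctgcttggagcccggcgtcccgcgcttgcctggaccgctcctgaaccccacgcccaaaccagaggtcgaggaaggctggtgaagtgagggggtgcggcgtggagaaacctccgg
Otx2 start region, listed site 3, chr14:48665060-48665359, minus strand: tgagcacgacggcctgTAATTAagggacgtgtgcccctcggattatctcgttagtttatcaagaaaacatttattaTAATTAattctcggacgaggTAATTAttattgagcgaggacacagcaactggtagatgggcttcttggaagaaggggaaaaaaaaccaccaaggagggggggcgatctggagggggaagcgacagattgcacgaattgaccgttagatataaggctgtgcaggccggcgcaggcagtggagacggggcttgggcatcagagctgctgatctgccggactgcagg

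The Gbx2 and Foxd3 windows each held 1 CACGTG, which 7.15% of the 32851 listed windows of the same length hold. The Foxd3 window also held TGACGTCA, found in 1.79% of windows. None of the 4 Otx2 windows held CACGTG or TGACGTCA. The printed Otx2 window held 3 matches to TAATTA, found in 5.29% of windows, and another Otx2 window held 1. TTCNNNGAA, the letters bound by STAT factors, was found in 8.30% of windows, in the printed Otx2 window and in neither the Gbx2 nor the Foxd3 window. The GC content was 64.7% for Gbx2 and 65.7% for Foxd3 against 51.0% for the printed Otx2 window, with a median of 52.7% over all windows. These matches describe letters in a window and not binding.

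The 3' ends were read from the GENCODE M21 transcript with the longest annotated 3' untranslated region (UTR) of each gene. Motifs tied to RNA turnover were searched on the transcript strand, namely ATTTA (the AU-rich pentamer), TATTTAT (a longer AU-rich form) and TGTANATA (the Pumilio motif). Sites are printed for Gbx2, Foxd3 and Otx2, with the match in capitals and up to 8 bases on each side.
Gbx2 Pumilio match: ccctacttTGTACATAgatctcta
Foxd3 Pumilio match: acattcttTGTACATAtttgtata
Gbx2 first AU-rich match: cactaaatATTTAttatacaa
Foxd3 AU-rich match: ttcagtagATTTAgagctttg
Otx2 first AU-rich match: actactttATTTAaaaaaaaa

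Gbx2 and Foxd3 each held 1 TGTANATA, found in 15.6% of 1074 genes and 11.7% of 1081 genes whose 3' UTR length lay within 10% of theirs. ATTTA occurred 3 times in the 664-base 3' UTR of Gbx2, where 16.9% of genes of like length have at least as many. It occurred 1 time in the 588 bases of Foxd3 and 2 times in the 1029 bases of Otx2. For these, 57.0% and 50.3% of genes of like length have at least as many, so such counts were common. TATTTAT occurred 1 time in Gbx2, around its first ATTTA, where 17.7% of genes of like length hold it, and in no other member. The 327-base 3' UTR of Tcf15 held none of these motifs, so none was common to the 3 genes that were lower.

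The label of the cells was checked first, over barcodes with at least 15000 UMIs and 1% to 20% mitochondrial UMIs. This left 2187 control cells, 1739 after 3 h and 2554 after 6 h, with medians of 43160, 51726 and 46200 UMIs per cell, and any 2 libraries shared 1 to 3 cell barcodes. The summed UMIs in cells ranged from 106842407 to 140321458 per library. All 8 of 8 embryonic stem cell markers averaged 10 CPM or more, and their summed level was 7062 CPM in the control, 7925 CPM after 3 h and 7149 CPM after 6 h. The sum hides differences between them. Their median log2 ratio against control was 0.19 after 3 h and -0.38 after 6 h, with 6 and 2 of the 8 above 0. Summed levels over the 3 libraries lay between 29.6 and 43.8 CPM for 10 primitive endoderm markers, 11.2 and 23.3 CPM for 6 trophectoderm markers, 4.68 and 8.75 CPM for 6 mesendoderm markers and 1.29 and 2.48 CPM for 6 fibroblast or feeder markers. Of the fibroblast markers, Col3a1 and Lum had 0 UMIs in every library. Of 6 neural markers, summed at 81.9, 59.3 and 43.0 CPM in the order control, 3 h and 6 h, 1 averaged 10 CPM or more (Tubb3). Of 6 markers of the 2-cell-like state, 5 were listed, and they summed to 0.592, 0.215 and 0.00713 CPM in the same order.

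Gbx2 (ENSMUSG00000034486, protein coding, GENCODE M21 on GRCm38, chromosome 1, 89927956 to 89931179, minus strand) had 95.3 CPM in the control (10622 UMIs, interval 93.5 to 97.1), 33.8 CPM after 3 h (3610 UMIs, 32.7 to 34.9) and 10.4 CPM after 6 h (1458 UMIs, 9.86 to 10.9). The 3 intervals did not overlap, and each later library was lower. The log2 ratio against control was -1.50 after 3 h (-1.55 to -1.44) and -3.20 after 6 h (-3.28 to -3.12). The level after 3 h was 35.5% of the control level and the level after 6 h was 30.8% of the 3 h level, so the step from 3 h to 6 h was no smaller than the step from control to 3 h. Among the 7608 genes averaging 10 CPM or more, Gbx2 had the 9th lowest ratio after 3 h and the 3rd lowest after 6 h.

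Tcf15 (ENSMUSG00000068079, protein coding, chromosome 2, 152143561 to 152149097, plus strand, 2 exons) had 231 CPM in the control (25778 UMIs, 228.5 to 234.1), 93.9 CPM after 3 h (10034 UMIs, 92.1 to 95.8) and 39.7 CPM after 6 h (5569 UMIs, 38.7 to 40.7). It followed the order of Gbx2, with no overlap between libraries. Its log2 ratio was -1.30 after 3 h (-1.33 to -1.27) and -2.54 after 6 h (-2.59 to -2.50). The 3 h level was 40.6% of the control level, and the 6 h level was 42.3% of the 3 h level. Among the same genes it had the 19th lowest ratio after 3 h and the 13th lowest after 6 h.

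Foxd3 (ENSMUSG00000067261, protein coding, chromosome 4, 99656299 to 99658622, plus strand, a single exon) gave 1903 UMIs, or 17.1 CPM, for the control (16.3 to 17.9), 664 UMIs or 6.21 CPM after 3 h (5.75 to 6.71) and 432 UMIs or 3.08 CPM after 6 h (2.80 to 3.38). These levels were lower at each step as well, without overlap. Its log2 ratio was -1.46 after 3 h (-1.59 to -1.33) and -2.47 after 6 h (-2.63 to -2.32). At 6 h the intervals of Foxd3 and Tcf15 overlapped, whereas that of Gbx2 lay below both.

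Otx2 (ENSMUSG00000021848, protein coding, chromosome 14, 48657677 to 48673819, minus strand, 11 annotated transcripts) was the member that differed in direction. The control held 240 UMIs, a level of 2.15 CPM (1.89 to 2.44), the 3 h library 860 UMIs or 8.05 CPM (7.52 to 8.61) and the 6 h library 840 UMIs or 5.99 CPM (5.59 to 6.41). Both treated libraries lay above the control, and the 6 h library lay between the control and the 3 h library. Its log2 ratio was 1.90 after 3 h (1.69 to 2.11), 1.47 after 6 h (1.27 to 1.69) and -0.43 after 6 h against 3 h (-0.57 to -0.29). Otx2 is also a neuroectoderm gene. The neural markers Sox1, at 6.85, 10.2 and 6.61 CPM, and Pax6, at 2.55, 4.18 and 3.10 CPM, were likewise highest after 3 h, whereas Tubb3 was lower in each later library at 65.3, 35.1 and 18.6 CPM. The part of neural cells in the Otx2 values was not tested. In bulk sums like these, fewer cells of a type and less RNA per cell cannot be told apart.

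Fgf5 (ENSMUSG00000029337, protein coding, chromosome 5, 98254184 to 98277030, plus strand) had 1 UMI in the control, 5 UMIs after 3 h and 1 UMI after 6 h. These came from 1 of 2187 cells, 5 of 1739 cells and 1 of 2554 cells, with exact upper limits of 0.254%, 0.670% and 0.218% of cells with a UMI. The counting interval of the log2 ratio after 3 h against control ran from -0.78 to 7.95, so no difference was detectable at this depth, and no ratio is given after 6 h. The classical epiblast ligand was thus close to undetected in these libraries before and after treatment.

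**Figure D1:**
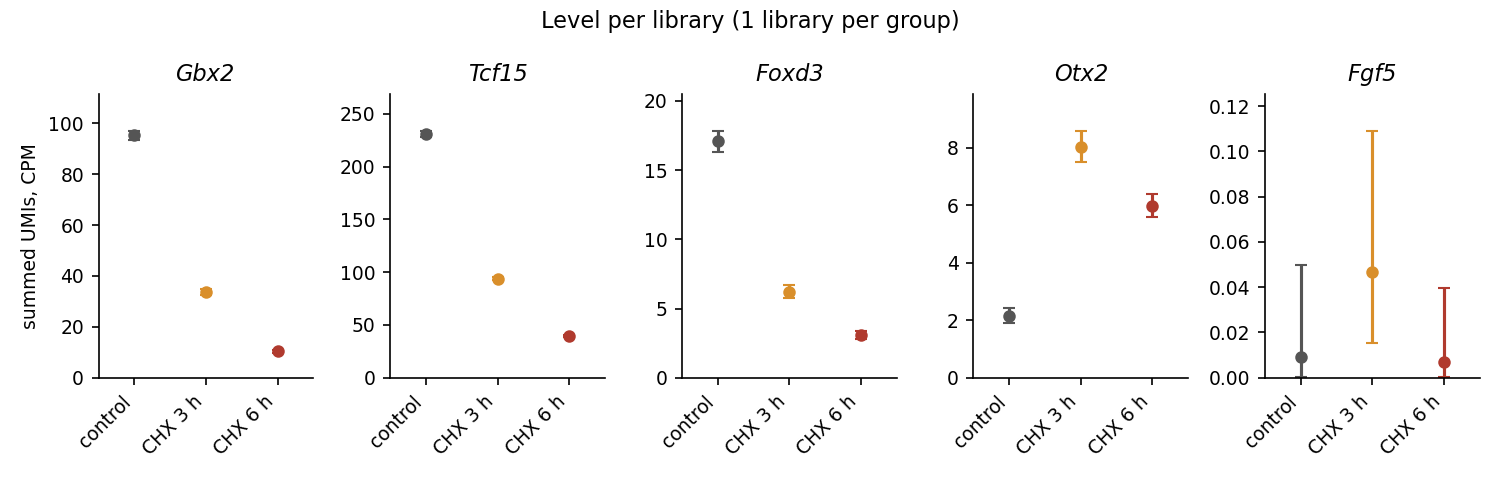
Summed UMI level (vertical axis, CPM, starting at 0, a separate scale in each panel) of the 5 genes in the control, 3 h cycloheximide (CHX3) and 6 h cycloheximide (CHX6) libraries; each point is 1 library and bars are exact 95% Poisson intervals for counting error. Gbx2, Tcf15 and Foxd3 step down from control to 6 h, Otx2 is highest after 3 h with 8.05 CPM, and the Fgf5 intervals overlap.

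These differences were read against how common such differences were. At 3 h, 0.513% of the genes averaging 10 CPM or more were at least 2-fold lower than in the control, and after 6 h 2.41% were, and both members in that range (Gbx2 and Tcf15) were lower by at least that much at both times. From 3 h to 6 h, 0.657% of these genes were at least 2-fold lower, again including both, and 0.145% were at least 2-fold higher. Foxd3 and Otx2 had mean levels of 8.79 and 5.40 CPM, so they were set beside the 3441 genes with a mean of 2 to 10 CPM, a range chosen after their levels were seen. There 1.22% of genes were at least 2-fold lower after 3 h and 3.84% after 6 h, which includes Foxd3, and 10% were at least 2-fold higher after 3 h and 19.1% after 6 h, which includes Otx2. Higher levels of that size were therefore more common in that range than lower ones, and Otx2 ranked 54th from the highest of the 3441 after 3 h and 320th after 6 h. Foxd3 ranked 18th and 13th from the lowest. From 3 h to 6 h, 0.785% of genes in that range were at least 2-fold lower, and Foxd3 stood close to that limit with a log2 ratio of -1.01 (-1.19 to -0.84), while 1.98% were at least 2-fold higher.

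The genes nearest to Gbx2 and Tcf15 in the plane of log2 ratios after 3 h and after 6 h were named by distance over these 2 ratios, which share the control library. Among the genes nearest to Gbx2 were Chac1 at a distance of 0.25 and Mat2a at 0.27, with 6 h ratios of -3.13 and -2.99. These encode a glutathione-degrading enzyme and a methionine adenosyltransferase. Nearest to Tcf15 were Hspa8 at 0.043, Lgr4 at 0.13 and Fos at 0.21, with 6 h ratios of -2.57, -2.65 and -2.71, a chaperone, a receptor for R-spondins and an immediate early factor. None of these 5 was on the list of formative and primed genes. Chac1, at 22.6, 6.79 and 2.58 CPM, and Lgr4, at 21.7, 8.38 and 3.46 CPM, reached the mean of 10 CPM only through the control library.

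**Figure D2:**
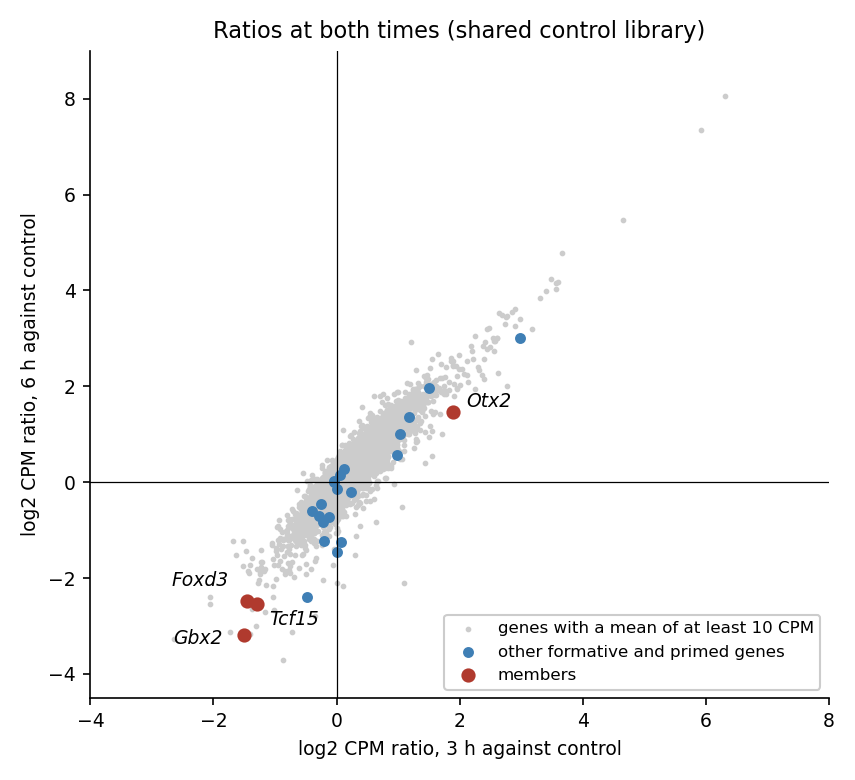
Log2 CPM ratio against control after 3 h (horizontal axis) and after 6 h (vertical axis) for 7608 genes averaging 10 CPM or more (grey), other formative and primed genes among them (blue) and 4 members (red), of which Foxd3 and Otx2 have means below 10 CPM; both axes share the control library. Gbx2, Tcf15 and Foxd3 lie together at the lower left, with 6 h ratios of -3.20, -2.54 and -2.47, and Otx2 lies at the upper right.

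Antisense partners were examined because the sources used here do not state that strand was used in counting. D130058E05Rik overlaps Gbx2 on the opposite strand and had 7.82, 9.70 and 10.3 CPM in the control, 3 h and 6 h libraries, so it did not share the lower levels of Gbx2. Otx2os1, on the strand opposite Otx2, had 1, 0 and 2 UMIs. Gm12688, which lies 1316 bases from Foxd3 on the opposite strand, had 4.91, 4.40 and 4.25 CPM.

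RNA free in the droplets was measured in barcodes with 10 to 100 UMIs. For Gbx2 it held 88.6, 27.2 and 5.61 CPM in the order control, 3 h and 6 h, and for Tcf15 172, 51.1 and 27.3 CPM. For Foxd3 it held 53, 27 and 7 UMIs and for Otx2 7, 27 and 20 UMIs. Free RNA thus had the same order of libraries as the cells for Gbx2, Tcf15, Foxd3 and Otx2, and Fgf5 had 0 free UMIs in each library. Its part in the shares of cells below was not tested, and these are shares of cells with a UMI, not of expressing cells.

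The order of the libraries did not rest on deep or shallow cells. When the cells of each library were split into 4 groups by UMI count, Tcf15 ranged from 204 to 252 CPM in the control, 78.6 to 105 CPM after 3 h and 31.3 to 45.2 CPM after 6 h. The ranges of Otx2 over the same groups were 1.91 to 2.93, 7.19 to 9.06 and 5.48 to 6.52 CPM, so these did not overlap between libraries either.

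In single cells, each cell was thinned at random to 15000 UMIs, so that depth was equal and no cell was left out. A Gbx2 UMI was present in 71.0% of control cells (exact interval 69.0 to 72.9), 35.8% after 3 h (33.5 to 38.1) and 14.3% after 6 h (13.0 to 15.7). Unthinned, these shares were 91.3%, 70.2% and 38.0%. For Tcf15 the shares were 92.9% (91.8 to 94.0), 68.0% (65.7 to 70.2) and 40.6% (38.7 to 42.5), and 99.1%, 92.6% and 74.9% unthinned. Thinned to 30000 UMIs, which left out shallower cells, Gbx2 was detected in 88.0%, 54.5% and 25.9% of cells and Tcf15 in 98.2%, 86.0% and 62.0%. Both genes were thus detected in fewer cells in each later library at either depth. Cells with at least 4 Tcf15 UMIs made up 42.0% of control cells, 8.17% after 3 h and 1.21% after 6 h.

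Foxd3 was detected in 19.98% of thinned control cells (18.3 to 21.7), 9.03% after 3 h (7.72 to 10.5) and 4.07% after 6 h (3.34 to 4.91). Unthinned, the shares were 47.1%, 28.5% and 14.5%. Otx2 was detected in 2.93% of thinned control cells (2.26 to 3.72), 10.1% after 3 h (8.74 to 11.6) and 7.60% after 6 h (6.60 to 8.69), or 7.91%, 24.4% and 17.3% unthinned. Its shares had the same order as its CPM in every library. The free RNA of Otx2 was close to its level in cells, at 1.95, 8.17 and 5.10 CPM.

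The spread over cells differed between the genes. For counts drawn at random with the same mean in each cell, the variance over the mean would be 1. For Otx2 it was 1.29 in the control, 1.57 after 3 h and 1.63 after 6 h, with up to 7 UMIs in a thinned cell after 3 h and after 6 h, against a mean of 0.129 and 0.101. For Foxd3 it was 1.10, 1.07 and 1.12. For Tcf15 it was 1.58, 1.40 and 1.28 and for Gbx2 1.24, 1.30 and 1.08. At a given relative spread this value lies nearer 1 the lower the mean, so it does not rank genes or libraries of unlike mean. The variance less the mean, divided by the squared mean, was 0.45, 0.69 and 2.67 for Foxd3 and 0.17, 0.29 and 0.48 for Tcf15. It was 0.17, 0.59 and 0.47 for Gbx2 and 8.60, 4.41 and 6.24 for Otx2. Thus Otx2 molecules were spread less evenly over cells than Foxd3 molecules at both treated times, at means of 0.129 and 0.0978 UMIs per cell after 3 h. These are values of single libraries, and doublets were not removed.

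**Figure D3:**
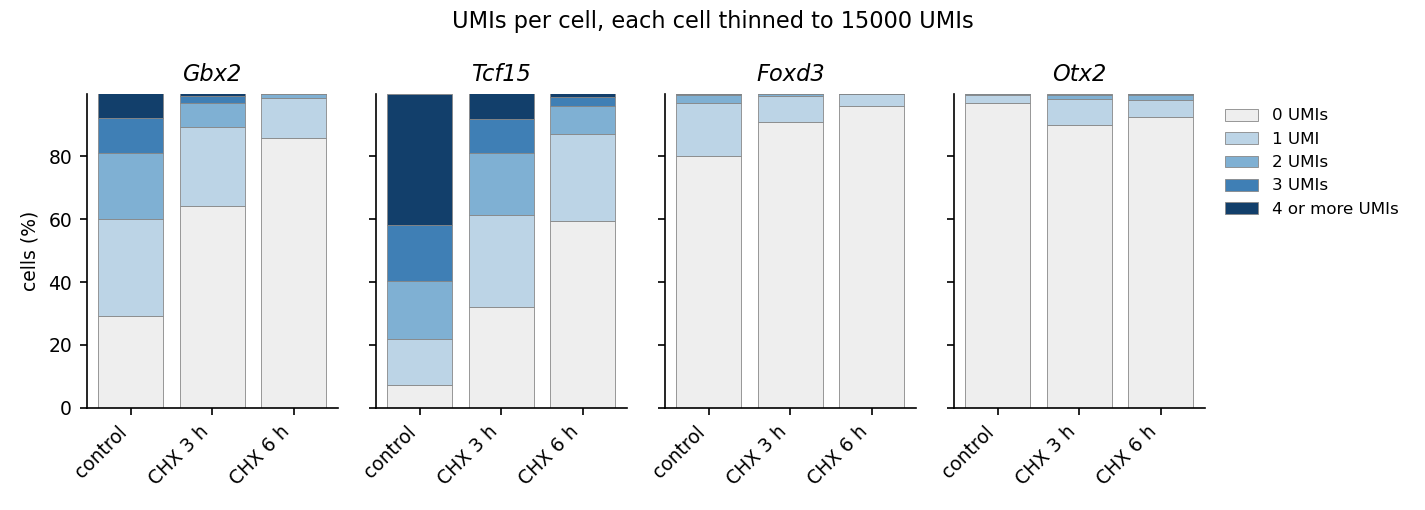
Share of cells (vertical axis, percent) with 0, 1, 2, 3 or at least 4 UMIs of Gbx2, Tcf15, Foxd3 and Otx2 in each library, every cell thinned to 15000 UMIs; n is 2187 control, 1739 CHX3 and 2554 CHX6 cells. The share with 0 UMIs grows from control to 6 h for Gbx2, Tcf15 and Foxd3 and is smallest after 3 h for Otx2, where 10.1% of cells had a UMI.

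Detection of Gbx2, Tcf15 and Foxd3 in the same cell was counted at equal depth. All 3 were detected in 14.4% of control cells, 3.05% after 3 h and 0.470% after 6 h. None was detected in 2.79%, 21.1% and 50.4% of cells. Gbx2 and Tcf15 occurred together in 7.17% of cells after 6 h (6.19 to 8.24) where the product of the single shares is 5.80%, and in 67.0% of control cells (65.0 to 69.0) where it is 65.9%. At 3 h they occurred together in 26.6% (24.6 to 28.8) where the product is 24.3%. Otx2 and Tcf15 occurred together in 2.27% of cells after 6 h (1.73 to 2.93), below the product of 3.08%, whereas after 3 h the share was 7.19% (6.02 to 8.50) and the product 6.88%.

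Cells with a UMI of one gene were then compared with the remaining cells of the same library. Cells with a Tcf15 UMI had more Gbx2 in all 3 libraries, at 96.2 against 66.2 CPM in the control, 38.5 against 23.9 CPM after 3 h and 13.6 against 8.70 CPM after 6 h. The log2 ratios were 0.53 (0.30 to 0.78), 0.68 (0.45 to 0.92) and 0.64 (0.35 to 0.93). Id1, an inhibitor of bHLH factors, was higher in cells with a Tcf15 UMI as well, with log2 ratios of 0.39 (0.25 to 0.54), 0.18 (0.11 to 0.25) and 0.37 (0.31 to 0.43).

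Id3, a related inhibitor, had ratios of -0.21 (-0.48 to 0.09), 0.12 (0.06 to 0.19) and 0.39 (0.33 to 0.46) in the same split. Cells with an Otx2 UMI had more Id3, at 51.0 against 42.9 CPM in the control, 410 against 304 CPM after 3 h and 290 against 186 CPM after 6 h. These log2 ratios were 0.27 (-0.19 to 0.66), 0.43 (0.34 to 0.52) and 0.64 (0.54 to 0.75), so the interval left out 0 in the treated libraries and not in the control, where only 64 cells had an Otx2 UMI. In cells with an Otx2 UMI after 6 h, Tcf15 was at 28.9 against 40.0 CPM, a log2 ratio of -0.46 (-0.81 to -0.15), where the control and 3 h intervals held 0. Higher levels were not particular to Id3. Id1 and Sox2 were also higher in cells with an Otx2 UMI after 3 h and after 6 h, though not in the control, where their intervals held 0. Spry4 was higher in cells with an Otx2, a Tcf15 or a Gbx2 UMI in all 3 libraries, with intervals above 0. In the Foxd3 split the Spry4 interval lay above 0 in the control only.

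The summed naive transcription factors were slightly higher in cells with a Foxd3 or a Gbx2 UMI in all 3 libraries. For Foxd3 in the control they were at 2009 against 1871 CPM, a log2 ratio of 0.10 (0.07 to 0.13). For Gbx2 the ratios were 0.048 (0.023 to 0.073), 0.062 (0.039 to 0.085) and 0.053 (0.021 to 0.086). For Tcf15 the interval held 0 in the control, at 1900 against 1882 CPM, and lay above 0 after 3 h, at 0.038 (0.015 to 0.062), and after 6 h, at 0.081 (0.058 to 0.104). For Otx2 the intervals held 0 in all 3 libraries. Nanog was at 138 CPM in control cells with a Foxd3 UMI and 120 CPM in those without, a log2 ratio of 0.20 (0.09 to 0.31), but after 3 h and 6 h the intervals held 0. Single factors did not all follow the sum. In the Gbx2 split the ratios of Nanog were -0.11 (-0.21 to -0.014) in the control, 0.088 (0.0017 to 0.17) after 3 h and 0.092 (-0.015 to 0.20) after 6 h. Those of Klf4 were 0.061 (-0.035 to 0.16), -0.15 (-0.24 to -0.061) and -0.013 (-0.14 to 0.11) in the same order. Cells of 1 library are not replicates, so these are descriptions of 3 libraries with no test.

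**Figure D4:**
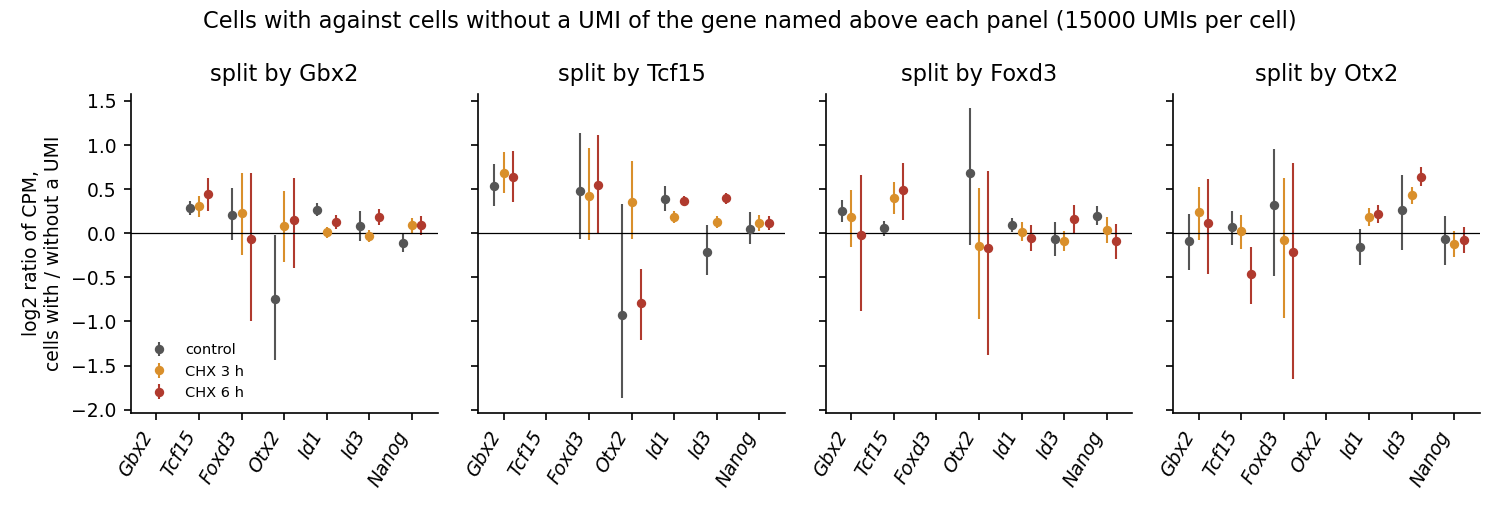
Log2 ratio of CPM (vertical axis) of the genes on the horizontal axis in cells with against cells without a UMI of the gene named above each panel, in the control, CHX3 and CHX6 libraries, every cell thinned to 15000 UMIs; bars are exact conditional 95% intervals for counting error. Gbx2 is above 0 in the Tcf15 panel in all 3 libraries, and Id3 is above 0 in the Otx2 panel after 3 h and after 6 h.

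The other genes of the formative and primed state were taken from a list of 38 genes that holds the members. Of these, 22 averaged 10 CPM or more, of which 20 were not members. That floor used the mean of the 3 libraries, so levels after treatment helped decide which genes were counted. Zic5 passed it with 5.11 CPM in the control and 40.5 and 41.0 CPM after 3 h and 6 h. Pou3f1 did not pass it, with 15.5, 5.17 and 5.07 CPM in the same order. At 3 h, 0 of the 20 were at least 2-fold lower and 4 were at least 2-fold higher, where 0.513% and 4.32% of all genes in that range were. At 6 h, 4 were at least 2-fold lower and 3 at least 2-fold higher, against 2.41% and 8.65% of all genes. Their median log2 ratio was 0.0059 after 3 h and -0.18 after 6 h, against 0.11 and 0.17 over all genes in that range. With Gbx2 and Tcf15 included, the 3 h median was -0.018, which turned to 0.25 by mean UMIs per cell.

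Among the 22 genes averaging 10 CPM or more, Zic5 and Sall3 had the highest 6 h ratios and Gbx2 and Tcf15 the lowest. Zic5, a zinc finger factor of the epiblast and neural plate, had 5.11 CPM in the control, 40.5 CPM after 3 h and 41.0 CPM after 6 h, log2 ratios of 2.98 and 3.00. Sall3, a spalt family factor, had 10.6, 30.0 and 41.1 CPM, with a ratio of 1.51 after 3 h and a level 3.89-fold that of the control after 6 h. Dnmt3b, the de novo DNA methyltransferase of the epiblast, differed less from the control than Gbx2 and Tcf15 did, at 50.3, 38.1 and 32.9 CPM with ratios of -0.40 and -0.61. Pou3f1, a POU factor of the formative state with a mean below 10 CPM, had 1725, 552 and 712 UMIs or 15.5, 5.17 and 5.07 CPM, so it was lower at both times with no further step after 3 h.

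**Figure D5:**
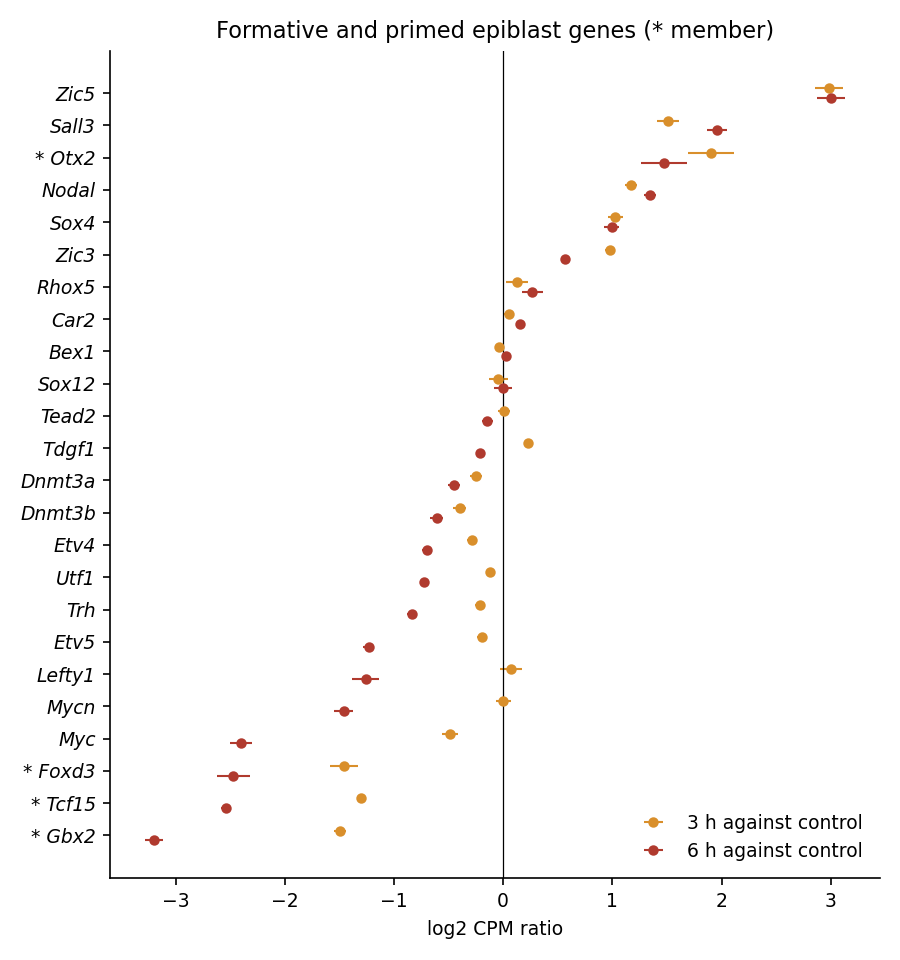
Log2 CPM ratio against control (horizontal axis) after 3 h and after 6 h for the genes of the formative and primed list averaging 10 CPM or more and for Foxd3 and Otx2, ordered by the 6 h ratio; stars mark members and bars are exact 95% intervals for counting error. Gbx2, Tcf15 and Foxd3 occupy the low end and Otx2 a place near the top, below Zic5 and Sall3.

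The naive factors served as a comparison group. Of 14 listed, 13 averaged 10 CPM or more. At 3 h 0 of the 13 were at least 2-fold lower and after 6 h 2 were, against 0.513% and 2.41% of all genes in that range. The median log2 ratio of the 13 was 0.38 after 3 h and -0.12 after 6 h. Among these 13, Klf5 had ratios of 0.32 and -1.11 and Tfcp2l1 of -0.65 and -1.06, the lowest after 6 h, whereas Klf2 with 0.91 and 0.76 and Stat3 with 0.71 and 0.24 were the highest. Prdm14, the listed factor averaging less than 10 CPM, had 0.84 and 1.09. The 6 h ratio of Stat3 turned to -0.047 under TMM scaling, which sets libraries by the bulk of their genes. Nanog had ratios of 0.50 and 0.24, the latter -0.050 under TMM. Klf4 had 0.47 and -0.27, Esrrb 0.57 and -0.15. The core factor genes Pou5f1, with 0.12 and -0.20, and Sox2, with 0.42 and -0.54, were above the control after 3 h and below it after 6 h, although under TMM the 3 h ratio of Pou5f1 was -0.053. After 3 h, 11 of the 13 naive factors were above 0, whereas Gbx2, Tcf15 and Foxd3 were at -1.50, -1.30 and -1.46.

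Ligands, receptors and feedback genes of the fibroblast growth factor pathway gave the signalling side. Of 20 listed genes, 13 averaged 10 CPM or more. Of these, 0 were at least 2-fold lower after 3 h and 7 after 6 h, against 0.513% and 2.41% of all genes in that range. After 3 h 1 was at least 2-fold higher, against 4.32% of all genes. The median log2 ratio of the 13 was -0.23 and -1.01, the former 0.040 by mean UMIs per cell. Fgf4, the main autocrine ligand of embryonic stem cells, had 58.6 CPM in the control, 40.3 CPM after 3 h and 36.8 CPM after 6 h, in contrast to the almost undetected Fgf5. Spry4 and Spry2, feedback inhibitors of the pathway, were the lowest of the 13 after 6 h, with ratios of -0.87 and -3.71 for Spry4 and -0.35 and -2.79 for Spry2. Dusp6, an ERK phosphatase, had ratios of 0.11 and -2.18, the former -0.068 under TMM. Sos1 and the receptor gene Fgfr1 were the highest of the 13 after 6 h with -0.062 and -0.064, which turned to 0.046 and 0.045 by mean UMIs per cell. The ratio of Spry4 after 6 h lay below that of Gbx2, but after 3 h Gbx2, Tcf15 and Foxd3 were lower than all 13 of these genes.

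Genes of LIF signalling, of which Gbx2 is a target, were mixed. Of 10 listed, 9 averaged 10 CPM or more, with a median log2 ratio of 0.47 after 3 h and -0.27 after 6 h. None was at least 2-fold lower after 3 h and 2 were after 6 h, against 0.513% and 2.41% of all genes in that range. The 2 were Socs3, the feedback inhibitor of STAT3 signalling, with 49.9, 49.8 and 11.6 CPM, and Tfcp2l1. Il6st, the shared receptor subunit, and the kinase gene Pim1 were the highest of the 9 after 6 h with 0.90 and 0.85. After 3 h the ratio of Socs3 was -0.00038, or -0.18 under TMM and 0.27 by mean UMIs per cell, while Gbx2 stood at 35.5% of its own.

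Partners and antagonists of Tcf15 were read from a list of 4 Id genes and 3 E protein genes, of which 6 averaged 10 CPM or more, with medians of 0.39 and 0.41. Id2 had 32.2 CPM in the control, 160 CPM after 3 h and 164 CPM after 6 h, and Id3 had 46.1, 314 and 185 CPM. Their log2 ratios were 2.31 and 2.77 after 3 h and 2.35 and 2.00 after 6 h, where 4.32% and 8.65% of all genes were at least 2-fold higher. Id1 had ratios of 0.36 and 0.070, the latter -0.22 under TMM. Tcf3, which encodes an E protein that pairs with bHLH factors, had -0.42 and -0.57. The other E protein genes did not share this, with 0.41 and 0.61 for Tcf4 and -0.12 and 0.20 for Tcf12. For Tcf12 the 3 h ratio was 0.15 by mean UMIs per cell and the 6 h ratio -0.084 under TMM.

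Close relatives of the members were mostly scarce. Of 11 listed paralogs, 8 had less than 1 CPM in every library, and Crx had 0 UMIs in all 3. Gbx1, the other Gbx gene, had 246, 99 and 79 UMIs or 2.21, 0.927 and 0.563 CPM, in the same order of libraries as Gbx2. Otx1 had 11, 35 and 61 UMIs, with ratios of 1.69 and 2.09, above the control at both times as for Otx2. With no floor on expression, 17.6% of genes were at least 2-fold higher after 3 h and 28.6% after 6 h. Msc, a bHLH relative of Tcf15, had 15.8, 20.4 and 11.6 CPM and so did not share the low 3 h level of Tcf15. Of 6 listed Wnt genes, 3 averaged 10 CPM or more. Among these Tcf7l1, a repressor that limits naive genes, was the highest with ratios of 0.46 and 0.85, Ctnnb1 the lowest with -0.20 and -0.43, and Tcf7l2 lay between them with 0.20 and 0.34. The 3 h ratio of Ctnnb1 turned to 0.067 by mean UMIs per cell.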

How the data were processed

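Single-cell RNA of 3 mESC libraries was captured with 10x Genomics 3' v3 chemistry, per the labels' protocols. The authors deposited unfiltered tables of UMI counts, with a row for each gene and a column for each barcode. Cell Ranger 4.0.0 and the build mm10 are named in the submitters' processing notes. Cells had not been called, and the annotation and the use of strand are not given in the sources used here. The other deposited columns hold gene names and barcodes, as their contents show.

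Barcodes with at least 15000 UMIs and 1% to 20% mitochondrial UMIs were kept, which left out 62, 1 and 8 deep barcodes for a low mitochondrial share in the control, 3 h and 6 h libraries. Doublets were not removed, and no doublet caller was run. Log2 CPM ratios used a prior of 0.5 counts. Intervals were exact Poisson, conditional binomial or Clopper-Pearson intervals, and that of a median was an approximation from its middle genes. Members under 10 CPM are given with counts. TMM factors came from edgeR 4.0.16 in R 4.3.3, and the rest was computed in Python 3.11.15 with numpy 2.4.6 and scipy 1.17.1, tested on simulated data. Of 32285 gene identifiers, 32158 matched GENCODE M21.

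The members and lists were chosen with earlier results of these data known. Besides the members, the named genes were the 2 highest and 2 lowest of each list at 6 h, 13 genes named whatever their values, and the 3 nearest genes of Gbx2 and Tcf15, of which 1 is not reported here. Sox1, Pax6 and the other genes named outside that rule were chosen after their values were seen.

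Alternatives were TMM factors or mean UMIs per cell as the scaling, other limits on UMIs and mitochondrial share, leaving out the deepest cells (over 2 times their library's median), subtraction of 10% of the free RNA, a prior of 5 counts and other floors on expression. Each group held 1 library, so no test between groups was run.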

Additional observations from a re-analysis of the deposited data

Results flagged for a closer look

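For 7 named genes the counting intervals placed the 3 h library above the control and the 6 h library below it. The difference between the 6 h and 3 h log2 ratios was -2.28 for Dusp6, -1.43 for Klf5, -0.97 for Sox2, -0.81 for Msc, -0.74 for Klf4, -0.72 for Esrrb and -0.32 for Pou5f1. Each value rests on 1 library per time, and the difference was not tested over samples. Under TMM scaling the 3 h ratios of Dusp6 and Pou5f1 were -0.068 and -0.053, so that both times lay below the control. None of the 5 members met this description.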

How the results depend on the processing

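No paired analysis was possible because each group held 1 library. The direction of Gbx2, Tcf15, Foxd3 and Otx2 was the same under all 9 alternatives in all 3 comparisons. Under TMM scaling the median ratio of the members was -1.55 after 3 h, -2.79 after 6 h and -1.24 between them, against -1.38, -2.51 and -1.13 by CPM, and by mean UMIs per cell it was -1.11, -2.40 and -1.29. With Fgf5 included, which was chosen after seeing the data, it was -1.30 after 3 h and -1.24 between 3 h and 6 h. The median of all genes averaging 10 CPM or more was 0.17 after 6 h by CPM, -0.12 under TMM and 0.27 by mean UMIs per cell. The ratio of Foxd3 between 3 h and 6 h ranged from -1.17 to -0.89, across the 2-fold limit.

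The background shares depended on scaling and floor. After 3 h the share of genes at least 2-fold lower was 0.272% with a floor of 50 CPM, 6.3% with no floor, 0.841% under TMM and 0.276% per cell, and the share higher was 2.76%, 17.6%, 2.89% and 9.33%. After 6 h the shares lower were 1.5%, 7%, 5.19% and 1.85% and the shares higher 5.58%, 28.6%, 4.68% and 11.2%. Between 3 h and 6 h the shares lower were 0.579%, 6.13%, 0.92% and 1.03% and the shares higher 0.0681%, 14.5%, 0.0789% and 0.0526%. Without cells above 2 times the median UMIs, Gbx2 was detected in 68.1%, 34.7% and 14.1% of thinned cells and Otx2 in 3.14%, 10.0% and 6.64%. Depth limits Fgf5, with 1 to 5 UMIs per library, and the 64 control cells with an Otx2 UMI.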

Other observations

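Several genes outside the members, chosen after their values were seen, had few UMIs in the control and more in the treated libraries. With no floor on expression, 17.6% of genes were at least 2-fold higher after 3 h and 28.6% after 6 h. The shares at least 2-fold lower were 6.3% and 7%. Fgfr2, a receptor for fibroblast growth factors, had 113 UMIs in the control, 458 after 3 h and 2116 after 6 h, and Sox3, a SoxB1 factor, had 220, 391 and 1285. Foxd2, a relative of Foxd3 that was itself lower, had 6, 50 and 129 UMIs. Zic2, a relative of Zic5, had 66, 362 and 376 UMIs. Fgf15 and Fgf8, which encode other fibroblast growth factors, had 603, 186 and 120 UMIs and 46, 21 and 14 UMIs. Both counts were lower in each later library, but for Fgf8 the interval of the log2 ratio of 6 h against 3 h held 0 (-2.07 to 0.066). Sox7, listed as a primitive endoderm marker, had 618, 141 and 42 UMIs, while Gata4 of the same list had 209, 259 and 470. No test was run on these values, which come from 1 library per group.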
